A study of Mus musculus with 11 samples.

Results

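The elastic fibre genes described here are 10 mouse genes, chosen by symbol with earlier results of these data known: Eln, Fbn1, Fbn2, Fbln2, Fbln5, Efemp2, Ltbp4, Mfap2, Mfap4 and Mfap5. All 10 were found among the 32868 named genes of the count table, and 9 were expressed highly enough to be tested with 9932 genes in all; Eln was not. The cells were primary lung fibroblasts of newborn mice, separated by FACS before bulk RNA-seq libraries were made. They carried either a PAD2KO genotype, which lacks the citrullinating enzyme encoded by Padi2, or the WT genotype. In batch 2 there were 2 PAD2KO libraries (PAD2KO 6 and PAD2KO 7) and 3 WT libraries (WT 5, WT 6 and WT 7), and in batch 1 there were 3 PAD2KO libraries (PAD2KO 1, PAD2KO 2 and PAD2KO 3) and 3 WT libraries (WT 1, WT 3 and WT 4). The labels do not say what the batches are, how the allele was made, which gate sorted the cells, how many animals gave each library, or whether any culture was given TNF, which the series title names. Nothing says that the libraries came from separate animals, so p-values measure only the spread among libraries, part or all of which may be technical.

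Elastic fibres give the lung its recoil. Tropoelastin, the product of Eln, is deposited on a scaffold of microfibrils whose backbone is made of fibrillins (Fbn1, Fbn2) and whose surface carries the microfibril-associated glycoproteins (Mfap2, Mfap5). Fibulins (Fbln2, Fbln5 and Efemp2, which encodes the protein also called fibulin-4) and the latent TGF-beta binding protein of Ltbp4 bring tropoelastin to the scaffold, Mfap4 encodes a fibrinogen-related protein that binds elastin and fibrillin, and lysyl oxidases crosslink the result. Lung fibroblasts and myofibroblasts lay down most of this matrix around birth, when alveoli form.

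Named-gene counts ranged from 962633 to 1421243 per library, and 0 counts in a library allowed a level of up to 2.11 to 3.12 CPM (counts scaled to library size). Padi2, the targeted gene, could not check the genotype labels: it had 0 and 4 counts in PAD2KO and 1, 2 and 0 in WT libraries of batch 2, and 1, 0 and 4 in PAD2KO and 0 in each WT library of batch 1. Of the 9 fibroblast markers, Col1a1, Col1a2, Col3a1, Pdgfra and Vim were each above 500 CPM in every group mean. Pdgfrb averaged 223 to 312 CPM over the groups, Dcn 191 to 620.4, Thy1 63.1 to 125 and Lum 2.78 to 8.73 CPM, while the epithelial markers Sftpc, Nkx2-1 and Scgb1a1 had 0 counts in every library.

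RefSeq (GRCm38.p6) gave a promoter for 6 of the 10 members by symbol, taken as 250 bases before to 50 bases after the first listed start. Those of Fbn1, Fbln2 and Mfap2 are printed because these genes stand for the fibrillins, fibulins and microfibril-associated glycoproteins that had less RNA in batch 2 than in batch 1 in both genotypes. The Fbn1 promoter lies at chr2:125506389-125506688 on the minus strand, that of Fbln2 at chr6:91212514-91212813 on the plus strand and that of Mfap2 at chr4:141010431-141010730 on the plus strand. Capitals mark the GC box GGGCGG, or CCGCCC on the other strand.
Fbn1: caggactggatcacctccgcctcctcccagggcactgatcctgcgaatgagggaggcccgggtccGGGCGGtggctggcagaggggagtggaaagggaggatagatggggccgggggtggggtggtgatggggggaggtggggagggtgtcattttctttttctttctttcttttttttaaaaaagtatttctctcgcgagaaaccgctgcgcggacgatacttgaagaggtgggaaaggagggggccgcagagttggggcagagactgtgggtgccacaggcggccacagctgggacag
Fbln2: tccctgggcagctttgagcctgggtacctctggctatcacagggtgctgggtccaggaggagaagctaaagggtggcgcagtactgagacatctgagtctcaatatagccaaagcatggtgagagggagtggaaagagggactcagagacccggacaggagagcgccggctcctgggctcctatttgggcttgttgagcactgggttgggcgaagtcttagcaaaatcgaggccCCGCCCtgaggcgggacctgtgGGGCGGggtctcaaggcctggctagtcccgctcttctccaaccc
Mfap2: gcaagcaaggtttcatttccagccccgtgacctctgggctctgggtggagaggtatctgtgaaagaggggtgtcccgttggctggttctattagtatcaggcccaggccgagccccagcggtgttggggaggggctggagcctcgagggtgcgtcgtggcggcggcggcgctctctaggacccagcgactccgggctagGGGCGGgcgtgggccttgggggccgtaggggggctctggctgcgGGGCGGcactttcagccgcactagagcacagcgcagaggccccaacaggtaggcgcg
All 6 promoters held GGGCGG on either strand, against 35.9% of the 27025 promoters of the same length. Their GC content was 60.3% to 68%, where the median of all promoters was 52.7%. TATAAA was found in 0 of the 6 and in 14.2% of all promoters. CCAAT was found in 2, those of Fbln5 and Ltbp4, and in 37.9% of all. TGANTCA, the letters of the AP-1 motif, was found in 0 of the 6 and in 7.93% of all, and GGAATG, those of the TEAD motif, in 0 of the 6 and in 14.6% of all. Each was searched on both strands, and a match of CCAAT or GGAATG can overlap the end of a GC box, while one of TATAAA or TGANTCA cannot. These matches describe the letters in these windows only.

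Between genes, levels were compared as TPM, which is scaled to transcript length. Summed over the 10 members, they made up 878 ± 48.0 TPM in PAD2KO (SD, n = 2) and 800 ± 106 TPM in WT (n = 3) of batch 2, and 1459 ± 90.2 TPM in PAD2KO and 1497 ± 101 TPM in WT of batch 1 (n = 3 each). Batch 2 libraries thus summed to 702 to 912 TPM and batch 1 libraries to 1366 to 1613 TPM, without overlap. In every group the fibulin genes Efemp2 and Fbln2 had the highest levels. Efemp2 averaged 336 ± 36.5 TPM in PAD2KO and 279 ± 22.1 TPM in WT of batch 2, and 456 ± 21.2 TPM in PAD2KO and 439 ± 52.0 TPM in WT of batch 1. Fbln2 averaged 233 ± 27.5 and 230 ± 77.0 TPM in PAD2KO and WT of batch 2, and 409 ± 50 and 376 ± 20.0 TPM in PAD2KO and WT of batch 1. The ranges of the pair overlapped only in WT of batch 2.

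Fbln5 and Mfap5 came next. In batch 2 Fbln5 stood above Mfap5, with mean levels of 129 against 90.2 TPM in PAD2KO and 102 against 78.1 TPM in WT. In batch 1 the order of the means was the other way, with 170 TPM for Fbln5 and 215 TPM for Mfap5 in PAD2KO and 201 TPM for Fbln5 and 217 TPM for Mfap5 in WT. Their ranges overlapped in both WT groups and not in the PAD2KO groups. Fbn1 had mean levels of 41.0, 39.9, 78.1 and 85.9 TPM, and Mfap2 of 37.1, 50.1, 75.6 and 117 TPM, in PAD2KO of batch 2, WT of batch 2, PAD2KO of batch 1 and WT of batch 1. Ranges of these neighbours overlapped in both PAD2KO groups, while Mfap2 stood above Fbn1 in both WT groups. Mfap4, Fbn2, Ltbp4 and Eln were the lowest of the members in every group. Eln was last, with means of 0, 0.586, 1.41 and 2.96 TPM in the same 4 groups. These fibroblasts thus held far more RNA for Efemp2, Fbln2, Fbln5, Mfap5, Fbn1 and Mfap2 than for tropoelastin. In WT of batch 1, where it was highest, Eln ranked 10938th of 32868 named genes by mean level, and Efemp2 ranked 291st.

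**Figure D1:**
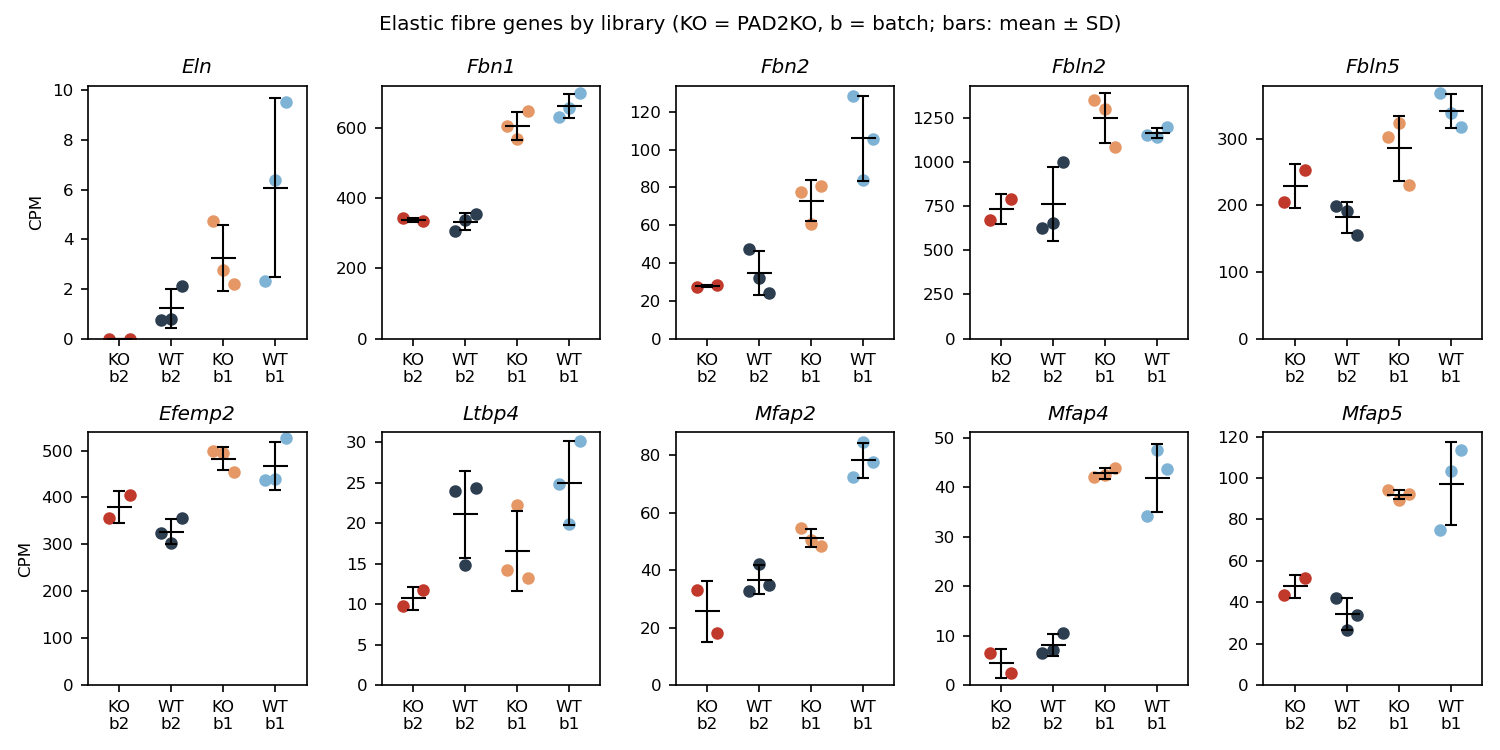
CPM of the 10 elastic fibre genes in the 11 libraries, 1 point per library, with the mean and SD of each group (PAD2KO and WT of batch 2, then PAD2KO and WT of batch 1). All batch 2 points lie below all batch 1 points for Fbn1, Fbn2, Fbln2, Efemp2, Mfap2, Mfap4 and Mfap5, and the Eln axis ends near 10 CPM.

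The main difference among these libraries lay between batches. Most elastic fibre genes had less RNA in batch 2 than in batch 1, in both genotypes, with Mfap4 falling most of the 9 tested members and Ltbp4 not passing the test. In PAD2KO, 7 of the 9 tested members were lower in batch 2 at an adjusted p under 0.05 and 0 were higher, where 18.7% of all tested genes passed in either direction and 9.13% were lower. In WT, 8 of the 9 were lower and 0 were higher, where 22.3% of all genes passed and 10.6% were lower. The members were listed with earlier results of these data known, so these shares describe the list and do not test it. The median log2 fold change, batch 2 over batch 1, of the 9 tested members was -0.84 in PAD2KO and -0.99 in WT, and over all tested genes it was -0.02 and -0.004. Adjusted p values of single genes are from edgeR's quasi-likelihood test with Benjamini-Hochberg adjustment over all 9932 genes. DESeq2 called 6 of the 9 members in PAD2KO and 8 in WT. With the authors' effective gene lengths as offsets, Fbn2 lost its call in both genotypes and Efemp2 in PAD2KO. Mfap4 passed the filter on low counts mainly through batch 1, where it is high, and a gene that passes this way has to be higher there; the other 8 tested members passed it in all 11 libraries, and of these 6 were lower in PAD2KO and 7 in WT. Without regard to genotype, all 5 batch 2 libraries lay below all 6 batch 1 libraries for 7 of the 9, which held for 8.46% of tested genes. Mfap4 is among these 7, with the same limit from the filter. In bulk samples, fewer cells of a type and less RNA per cell cannot be told apart.

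Tropoelastin itself could be described only by a few reads. Eln had 0 and 0 counts in PAD2KO and 1, 1 and 2 counts in WT of batch 2, against 6, 4 and 3 counts in PAD2KO and 3, 9 and 12 counts in WT of batch 1. In CPM these are 0 and 0 in PAD2KO and 0.728, 0.784 and 2.12 in WT of batch 2, and 4.75, 2.78 and 2.20 in PAD2KO and 2.34, 6.39 and 9.53 in WT of batch 1. Every batch 2 library lay below every batch 1 library of either genotype, a separation that held for 8.46% of tested genes. The margin was narrow: WT 7 had 2 counts (2.12 CPM), and PAD2KO 3 and WT 1 had 3 counts each (2.20 and 2.34 CPM). All of these lie below the 3.12 CPM that 0 counts allow in WT 7. Averaged over the genotypes, batch 2 minus batch 1 was -4.06 CPM. An exact two-sided permutation test over the 200 assignments within genotypes gave p = 0.005, the smallest it can give, which rests on this order of a few reads. In PAD2KO the batch 1 level was 2.74 times a floor of 3 counts over the batch 2 group. That value takes the 13 counts of batch 1 without counting error, so it is not a lower bound of the fall. In WT the ratio of batch 2 to batch 1 was 0.181 (95% exact interval 0.0455 to 0.526, covering counting error only). Between genotypes in batch 1, the PAD2KO level was 0.533 of that in WT (interval 0.249 to 1.09), so a difference was not detectable at this depth.

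The fibrillin genes encode the backbone of the microfibril. Fbn1 had 343 and 335 CPM in PAD2KO and 307, 338 and 355 CPM in WT of batch 2, against 605, 567 and 647 CPM in PAD2KO and 631, 657 and 700 CPM in WT of batch 1. Genotypes overlapped in both batches and batches did not. Its log2 fold change, batch 2 over batch 1, was -0.84 in PAD2KO (SE 0.115, adjusted p = 4.90e-06) and -0.99 in WT (SE 0.102, adjusted p = 1.55e-08). Fbn2, the fibrillin gene used chiefly during development, had 27.5 and 28.2 CPM in PAD2KO and 47.3, 32.1 and 24.4 CPM in WT of batch 2, against 77.6, 60.4 and 80.5 CPM in PAD2KO and 128, 83.8 and 106 CPM in WT of batch 1. Its highest batch 2 library, WT 5, stood below its lowest batch 1 library, PAD2KO 2. Between batches the log2 fold change was -1.38 in PAD2KO (SE 0.245, adjusted p = 0.000202) and -1.57 in WT (SE 0.200, adjusted p = 1.21e-06). The authors' effective length of Fbn2 ran from 2647 bases in WT 6 to 10827 bases in WT 7. With these lengths as offsets the log2 fold changes were -1.46 and -1.24 and neither call held (adjusted p = 0.0966 and 0.0776).

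The microfibril-associated glycoproteins bind fibrillin. Mfap2 had 33.2 and 18.0 CPM in PAD2KO and 32.8, 42.3 and 34.9 CPM in WT of batch 2, against 54.6, 50.7 and 48.3 CPM in PAD2KO and 72.4, 84.5 and 77.8 CPM in WT of batch 1. The lowest library was PAD2KO 7, and the WT libraries of batch 1 were the 3 highest. Batch 2 was lower by a log2 fold change of -1.0 in PAD2KO (SE 0.230, adjusted p = 0.00243) and -1.09 in WT (SE 0.183, adjusted p = 4.30e-05). Without PAD2KO 7 the PAD2KO value was -0.63 and did not pass (adjusted p = 0.134). Mfap5, the other gene of this pair, had 43.7 and 51.7 CPM in PAD2KO and 42.2, 26.6 and 33.9 CPM in WT of batch 2, against 94.2, 89.6 and 92.3 CPM in PAD2KO and 74.7, 104 and 114 CPM in WT of batch 1. No batch 2 library reached any batch 1 library. Its log2 fold change was -0.94 in PAD2KO (SE 0.195, adjusted p = 0.000833) and -1.50 in WT (SE 0.182, adjusted p = 3.00e-07).

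Mfap4, whose fibrinogen-related product binds elastin and fibrillin, differed most between batches among the 9 tested members. It had 6.48 and 2.35 CPM in PAD2KO and 6.56, 7.05 and 10.6 CPM in WT of batch 2, against 42.0, 42.4 and 43.9 CPM in PAD2KO and 34.2, 47.6 and 43.7 CPM in WT of batch 1. The batches were far apart and the 3 PAD2KO libraries of batch 1 were close to each other. Mfap4 fell by a log2 fold change of -3.26 in PAD2KO (SE 0.355, adjusted p = 1.16e-07) and -2.41 in WT (SE 0.277, adjusted p = 1.21e-07). In batch 2 it reached the level of the low-count filter in 0 PAD2KO libraries and 1 WT library, against 3 and 3 in batch 1. The filter thus fixed the direction, and these p-values are no support for a fall. The 2.35 CPM of PAD2KO 7 is near the 2.32 CPM that 0 counts allow there. Leaving out each library in turn, the PAD2KO value ran from -4.12 to -2.71.

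Among the fibulins, which tether tropoelastin to microfibrils and to the lysyl oxidases, the falls were smaller. Fbln2 had 673 and 793 CPM in PAD2KO and 626, 653 and 1003 CPM in WT of batch 2, against 1356, 1303 and 1089 CPM in PAD2KO and 1153, 1145 and 1198 CPM in WT of batch 1. WT 7 stood apart from WT 5 and WT 6 and came near the lowest batch 1 library, PAD2KO 3. The log2 fold change was -0.77 in PAD2KO (SE 0.166, adjusted p = 0.00320) and -0.62 in WT (SE 0.146, adjusted p = 0.00450). Without PAD2KO 6 the PAD2KO value was -0.64 and just missed the threshold (adjusted p = 0.0578).

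Efemp2 encodes the fibulin that carries lysyl oxidase to tropoelastin. It had 356 and 404 CPM in PAD2KO and 323, 302 and 356 CPM in WT of batch 2, against 500, 495 and 455 CPM in PAD2KO and 437, 439 and 527 CPM in WT of batch 1. The batches did not overlap, by a narrow margin between PAD2KO 7 and WT 1. Its log2 fold change was -0.34 in PAD2KO (SE 0.121, adjusted p = 0.0456) and -0.52 in WT (SE 0.108, adjusted p = 0.000651). The PAD2KO call was marginal: it was lost in DESeq2 (adjusted p = 0.0899), with RLE size factors (0.0521), with no filter (0.0863), with length offsets, with PAD2KO fitted alone (0.0572) and without 8 of the 11 libraries in turn, where the value ran from -0.45 to -0.24.

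Fbln5, needed in mice for elastic fibre assembly, had 205 and 252 CPM in PAD2KO and 198, 192 and 155 CPM in WT of batch 2, against 303, 324 and 231 CPM in PAD2KO and 368, 338 and 317 CPM in WT of batch 1. In PAD2KO the batch 2 library PAD2KO 7 lay above the batch 1 library PAD2KO 3, and in WT the batches were well apart. The PAD2KO log2 fold change, batch 2 over batch 1, was -0.32 (SE 0.144) and did not pass (adjusted p = 0.129); without PAD2KO 3 it was -0.45 and passed (adjusted p = 0.0354). Batch 2 was lower in WT (-0.90, SE 0.130, adjusted p = 5.84e-06). The batch difference of Fbln5 differed between genotypes by 0.58 on the log2 scale (SE 0.193), PAD2KO minus WT, which did not pass (unadjusted p = 0.00569, adjusted p = 0.153). For that difference 0 of the 9 members passed, where 1.62% of all tested genes did, and 1 member, Fbln5, had an unadjusted p under 0.05, as did 11.6% of all tested genes, a share near that of 1 in 9.

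Ltbp4, which works with fibulin-5 in elastin deposition and binds latent TGF-beta, had 9.72 and 11.8 CPM in PAD2KO and 24.0, 14.9 and 24.4 CPM in WT of batch 2, against 14.3, 22.2 and 13.2 CPM in PAD2KO and 24.9, 19.9 and 30.2 CPM in WT of batch 1. In WT the batches overlapped, and both PAD2KO libraries of batch 2 were below all others. The log2 fold change between batches was -0.63 in PAD2KO (SE 0.359, adjusted p = 0.248) and -0.25 in WT (SE 0.270, adjusted p = 0.573).

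**Figure D2:**
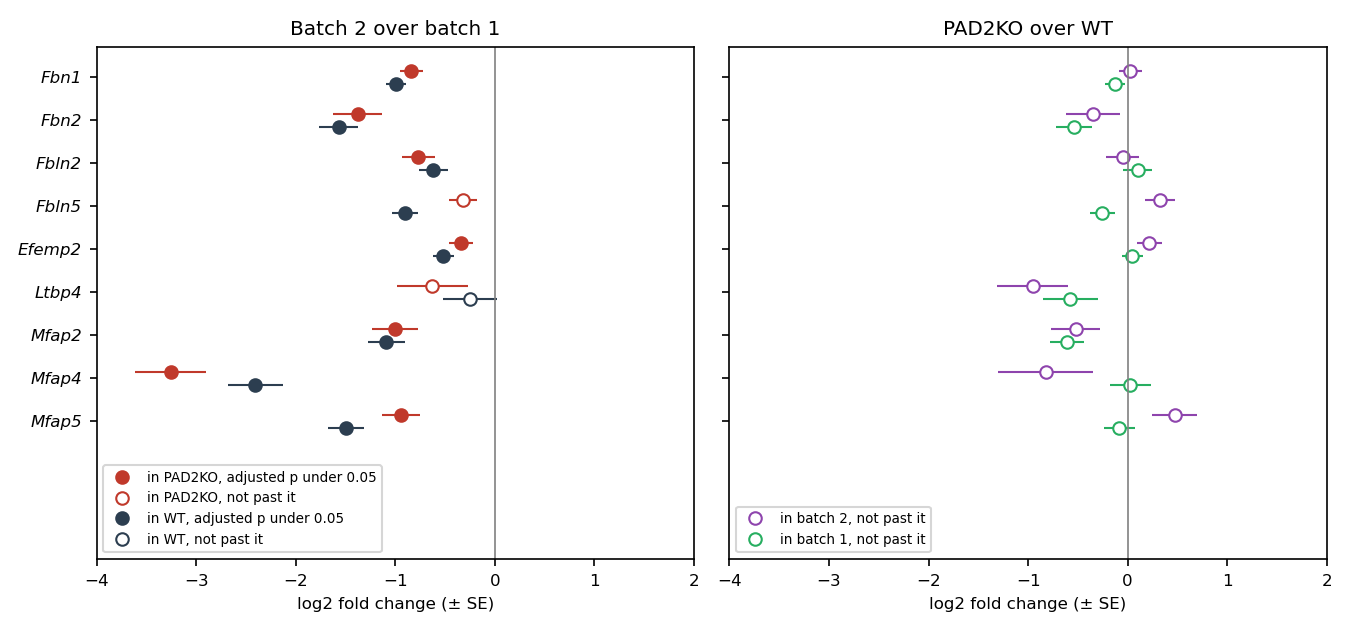
Log2 fold changes (x axis, ± SE from the edgeR fit) of the 9 tested members, batch 2 over batch 1 within each genotype on the left and PAD2KO over WT within each batch on the right. Filled points have an adjusted p under 0.05: 7 in PAD2KO and 8 in WT on the left, and 0 on the right.

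Between genotypes, 0 of the 9 tested members passed the threshold in either batch, and none passed in the fit of both batches. In batch 2 the share of all tested genes that passed was 3.11%, in batch 1 it was 0.131% and over both batches 0.191% of tested genes. At an unadjusted p under 0.05 there were 4 members in batch 2 (Ltbp4, Fbln5, Mfap2 and Mfap5), where 14.4% of all tested genes were, 3 in batch 1 (Mfap2, Fbn2 and Ltbp4), where 5.49% were, and 3 over both batches (Mfap2, Ltbp4 and Fbn2), where 7.64% were. DESeq2 also called 0 of the 9 in each of these comparisons. The median log2 fold change of the 9, PAD2KO over WT, was -0.05 in batch 2 and -0.13 in batch 1, against -0.007 and -0.001 over all tested genes.

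Mfap2 had the smallest p of the members over both batches. All 3 PAD2KO libraries of batch 1 were below all 3 WT libraries, at a mean of 51.2 ± 3.19 CPM in PAD2KO and 78.2 ± 6.06 CPM in WT (SD, n = 3 each). In batch 2 the means were 25.6 ± 10.7 CPM in PAD2KO (n = 2) and 36.7 ± 5.0 CPM in WT (n = 3), and PAD2KO 6 lay within the WT range. The log2 fold change, PAD2KO over WT, was -0.52 in batch 2 (SE 0.244, adjusted p = 0.319) and -0.61 in batch 1 (SE 0.171, adjusted p = 0.228). Over both batches it was -0.58 (SE 0.140) with an unadjusted p of 0.000343 and an adjusted p of 0.136. With no filter on low counts, where calls over both batches rose from 19 to 142 genes, that value passed the threshold (-0.57, adjusted p = 0.0205). Without PAD2KO 6, which leaves 1 PAD2KO library in batch 2, it was -0.69. No leave-one-out fit that kept PAD2KO 6 passed, and over all 11 such fits the value ran from -0.69 to -0.49.

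Mfap2 lies on chromosome 4 close to Padi2, with 2 tested genes, Sdhb and Atp13a2, between them in the RefSeq order of GRCm38.p6. Sdhb had a log2 fold change of -0.16 (SE 0.0893) and Atp13a2 of 0.21 (SE 0.188), PAD2KO over WT in the fit of both batches. None of the 5 tested neighbours on each side passed the threshold over both batches, and their values ran from -0.29 for Fbxo42 to 0.30 for Epha2.

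**Figure D3:**
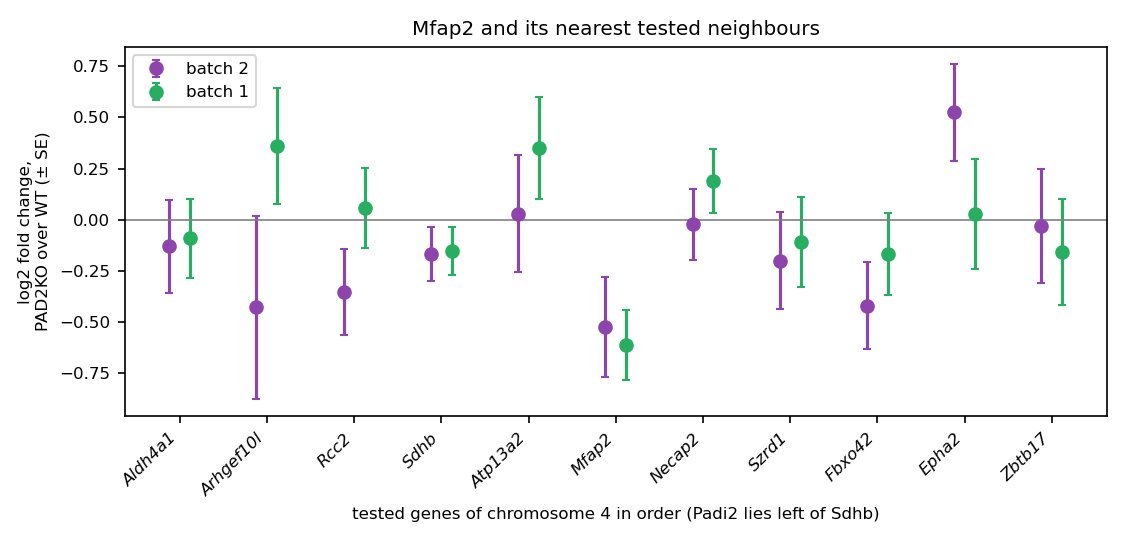
Log2 fold change of PAD2KO over WT (y axis, ± SE from the edgeR fit) in batch 2 and batch 1 for Mfap2 and its 5 nearest tested genes on each side, in their order on chromosome 4. Mfap2, at -0.52 in batch 2 and -0.61 in batch 1, is the lowest point of both series, and none of the values passed the threshold.

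Ltbp4 and Fbn2 also had less RNA on average in PAD2KO, without passing. Ltbp4 averaged 10.7 ± 1.44 CPM in PAD2KO and 21.1 ± 5.38 CPM in WT of batch 2, without overlap, and 16.6 ± 4.94 CPM in PAD2KO and 25.0 ± 5.15 CPM in WT of batch 1, with overlap. Its log2 fold change was -0.96 in batch 2 (SE 0.353, adjusted p = 0.161), -0.58 in batch 1 (SE 0.274, adjusted p = 0.877) and -0.72 over both (SE 0.217, adjusted p = 0.360). Fbn2 averaged 27.9 ± 0.480 CPM in PAD2KO and 34.6 ± 11.7 CPM in WT of batch 2, and 72.9 ± 10.9 CPM in PAD2KO and 106 ± 22.3 CPM in WT of batch 1. The groups overlapped in batch 2 and not in batch 1, and the log2 fold change over both batches was -0.48 (SE 0.151, adjusted p = 0.368).

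In batch 1 the genotypes did not overlap for 2 of the 9 tested members, Fbn2 and Mfap2, both lower in PAD2KO, which was seen for 11.3% of all tested genes. In batch 2, with 2 against 3 libraries, they did not overlap for 5 of the 9, against 31.1% of all tested genes. Of these 5, Ltbp4 and Mfap4 were lower in PAD2KO, and Fbln5, Efemp2 and Mfap5 were higher. Fbln5 averaged 229 ± 33.6 CPM in PAD2KO and 182 ± 23.5 CPM in WT of batch 2, a log2 fold change of 0.33 (SE 0.147, adjusted p = 0.299), and 286 ± 48.7 CPM in PAD2KO and 341 ± 25.8 CPM in WT of batch 1, one of -0.26 (SE 0.125, adjusted p = 0.902). Mfap5 averaged 47.7 ± 5.65 CPM in PAD2KO and 34.3 ± 7.81 CPM in WT of batch 2, a log2 fold change of 0.47 (SE 0.222, adjusted p = 0.327), and in batch 1 its value was -0.08 (SE 0.155). Efemp2 had a log2 fold change of 0.22 in batch 2 and 0.05 in batch 1, and Mfap4 of -0.82 in batch 2 and 0.03 in batch 1. Fbn1 and Fbln2 stayed within 0.13 of 0 in both batches (Fbn1 0.03 and -0.13, Fbln2 -0.05 and 0.10, batch 2 and batch 1), with SE of 0.0989 to 0.164.

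The members' patterns over the 11 libraries were compared by the root mean square difference of log2 CPM, each gene centred on its own mean. The closest pair was Fbln2 and Efemp2 at 0.203, followed by Fbn1 and Fbln2 at 0.221. For each member other than Eln and Mfap4 itself, the farthest member was Mfap4. For Eln the 5 tested genes with the most similar pattern were Gdf10 (0.313), Casp12 (0.340), Echdc2 (0.395), Tcea3 (0.397) and Cthrc1 (0.406), and the nearest member was Mfap2 (0.477). These likenesses rest on 41 Eln counts in all libraries.

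Genes that crosslink, assemble or deposit elastic fibres did not move as a block: of 25 listed, 23 were tested. In PAD2KO 4 were higher and 5 lower in batch 2 than in batch 1, where 9.52% and 9.13% of all tested genes were. In WT 4 were higher and 6 lower, where 11.7% and 10.6% of all tested genes were. The median log2 fold change of the 23 was -0.009 in PAD2KO and -0.10 in WT. The lysyl oxidase gene Lox fell most clearly, with 118 ± 11.8 CPM in PAD2KO and 141 ± 6.57 CPM in WT of batch 2, against 440 ± 11.1 CPM in PAD2KO and 588 ± 32.1 CPM in WT of batch 1. Its log2 fold change was -1.90 in PAD2KO (SE 0.126, adjusted p = 9.49e-12) and -2.06 in WT (SE 0.107, adjusted p = 1.40e-14). Loxl1, which crosslinks elastin, fell by 0.69 in PAD2KO and by 0.73 in WT on the log2 scale (adjusted p = 0.000362 and 2.12e-05). Adamts10, whose product acts on fibrillin microfibrils, fell by 1.21 and 1.85 (adjusted p = 8.95e-07 and 9.27e-12), and Adamtsl4, encoding a fibrillin-binding protein, had values of -1.15 and -1.03 (adjusted p = 0.00241 and 0.000905). With length offsets the Adamtsl4 values were -0.33 and -0.74 and neither passed, and without PAD2KO 6 the PAD2KO call was lost (adjusted p = 0.0733).

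Other partners rose. Vcan, encoding the proteoglycan versican, had 759 ± 93.4 CPM in PAD2KO and 803 ± 83.1 CPM in WT of batch 2, against 333 ± 27.7 CPM in PAD2KO and 265 ± 28.5 CPM in WT of batch 1. Its log2 fold change was 1.19 in PAD2KO and 1.60 in WT (adjusted p = 4.81e-08 and 1.40e-11). The integrin subunit Itgb3 rose by 1.89 and 1.70 (adjusted p = 3.76e-06 and 9.88e-07). Ltbp1, encoding a latent TGF-beta binding protein, rose in PAD2KO by 0.53 (adjusted p = 0.00110). In WT, Loxl2 (-0.72, adjusted p = 1.19e-05) and Ltbp2 (-0.80, adjusted p = 1.81e-05) were lower in batch 2.

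**Figure D4:**
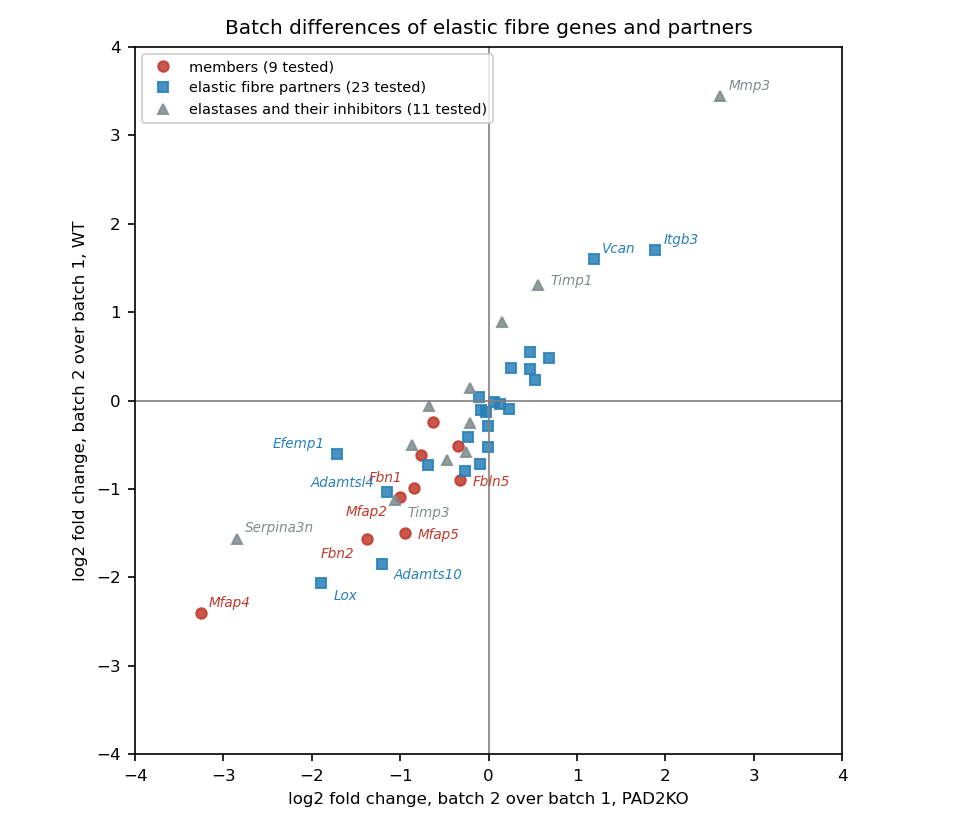
Log2 fold change of batch 2 over batch 1 in PAD2KO (x axis) and in WT (y axis) for the 9 tested members, 23 partners and 11 elastases and inhibitors; the axes share no library. The members all lie below 0 on both axes, while partners lie on both sides, with Lox at -1.90 and -2.06 and Vcan at 1.19 and 1.60.

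Between genotypes few partners passed: 2 of 23 in batch 2, where 3.11% of all tested genes did, and 1 in batch 1, where 0.131% did. In batch 2, Ltbp2 was higher in PAD2KO, with 524 ± 78.1 CPM against 336 ± 37.2 CPM in WT (log2 fold change 0.64, SE 0.137, adjusted p = 0.00639), and so was Loxl2, with 338 ± 48.4 CPM against 246 ± 22.3 CPM (0.45, SE 0.123, adjusted p = 0.0369). Without PAD2KO 6 the values were 0.50 and 0.32 and did not pass (adjusted p = 0.101 and 0.345). Loxl2 also lost the call in 4 of the other leave-one-out fits and with batch 2 fitted alone (adjusted p = 0.0760), and both calls were lost with length offsets. Cell type markers moved in the same comparison. Of the 8 smooth muscle markers, 5 were higher in PAD2KO in batch 2 and 0 lower, where 1.4% and 1.71% of all tested genes were. The median log2 fold change of these 8 markers was 1.33. Acta2, encoding smooth muscle actin, had 3453 ± 638 CPM in PAD2KO and 1230.3 ± 113 CPM in WT. Of the 8 tested fibroblast markers, Thy1 was higher (0.85) and Col3a1 (-0.55) and Dcn (-1.56) were lower in PAD2KO. The smooth muscle count was 2 without PAD2KO 7 and 3 without WT 5 or WT 7, and the fibroblast count fell to 1 without PAD2KO 6 or PAD2KO 7. The part of these markers in the genotype differences of batch 2 was not tested. In batch 1, where 0 markers of either list passed in edgeR or DESeq2 and 1 of each had an unadjusted p under 0.05, Adamts10 was lower in PAD2KO, with 135 ± 9.15 CPM against 199 ± 2.34 CPM in WT (-0.55, SE 0.114, adjusted p = 0.0355), a call that held in 3 of 11 leave-one-out fits and was lost in DESeq2 (adjusted p = 0.136), with length offsets and with the replicate block. Among all tested genes, 5.49% had an unadjusted p under 0.05 in batch 1. Over both batches 0 of 23 passed in edgeR and 6 had an unadjusted p under 0.05, where 7.64% of all tested genes did. The smallest p of the 23 was that of Lox (-0.36, SE 0.0828, adjusted p = 0.104). DESeq2 called 1, Lox (adjusted p = 0.0223).

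Of 17 genes for elastases and their inhibitors, 11 were tested. In PAD2KO 2 were higher and 4 lower in batch 2 than in batch 1, where 9.52% and 9.13% of all tested genes were. In WT 3 were higher and 3 lower, where 11.7% and 10.6% of all tested genes were. The median log2 fold change of the 11 was -0.26 in PAD2KO and -0.25 in WT. Mmp3, a matrix metalloprotease, rose in both, with a mean of 1070 ± 633 CPM in PAD2KO and 2300.3 ± 440 CPM in WT of batch 2, against 175 ± 60.4 CPM in PAD2KO and 211 ± 96.3 CPM in WT of batch 1 (log2 fold change 2.62 and 3.45, adjusted p = 0.0139 and 0.00218). Without PAD2KO 6 the PAD2KO value of Mmp3 was 1.85 and missed the threshold (adjusted p = 0.0900), as it did without PAD2KO 3 (0.0523) and with PAD2KO fitted alone (0.0792). Among the tissue inhibitors of metalloproteases, Timp1 rose by 0.56 in PAD2KO and 1.3 in WT (adjusted p = 0.00107 and 2.49e-10), and Timp3 fell by 1.05 and 1.13 (adjusted p = 0.000231 and 1.97e-05). Between genotypes in batch 2, the cathepsin gene Ctsl (957 ± 19.4 CPM in PAD2KO, 1440.02 ± 235 CPM in WT) and Timp1 (400.4 ± 43.1 CPM in PAD2KO, 583 ± 44.7 CPM in WT) were lower in PAD2KO (-0.59 and -0.54, adjusted p = 0.00542 and 0.00753), in the comparison in which smooth muscle markers were higher. Both calls were lost without PAD2KO 7 (adjusted p = 0.135 and 0.290) and with length offsets (0.104 and 0.0738). In batch 1 and over both batches 0 of the 11 passed in edgeR and in DESeq2. At an unadjusted p under 0.05 there were 0 and 3, where 5.49% and 7.64% of all tested genes were. Neutrophil elastase, Elane, had 0 counts in every library.

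Markers of other cells moved with the batches too. Among all tested genes, 9.52% were higher and 9.13% lower in batch 2 in PAD2KO, and 11.7% and 10.6% in WT. The summed level of 9 fibroblast markers was 6089 to 6721 CPM in PAD2KO and 6496 to 7341 CPM in WT of batch 2, against 11737 to 13549 CPM in PAD2KO and 12414 to 16325 CPM in WT of batch 1, sums that the collagen chain genes dominate. Of the 8 of these tested, 2 were higher in batch 2 (Thy1 and Vim) and 5 lower (Col1a1, Col1a2, Col3a1, Dcn and Pdgfrb) in PAD2KO, and 0 were higher and 4 lower (Col1a1, Col1a2, Col3a1 and Pdgfrb) in WT. Their median log2 fold change was -0.66 in PAD2KO and -0.29 in WT, with Col3a1 lowest at -2.48 and -2.19. Smooth muscle markers, all 8 detected, summed to 4435 to 5702 CPM in PAD2KO and 1598 to 2084 CPM in WT of batch 2, against 5409 to 8467 CPM in PAD2KO and 7204 to 7863 CPM in WT of batch 1. Of these 8, 2 were lower in batch 2 in PAD2KO and 8 in WT. Mesothelial markers, all 5 detected, summed to 49.4 to 89.9 CPM in PAD2KO and 51.9 to 89.6 CPM in WT of batch 2, against 89.6 to 252 CPM in PAD2KO and 198 to 344 CPM in WT of batch 1. Of the 8 myofibroblast markers 5 were tested, and 1 was higher and 2 lower in batch 2 in each genotype. Stc1 was the 1 that rose, by 3.35 in PAD2KO and 3.06 in WT, and Mustn1 had values of -2.13 and -2.10. In batch 2 Mustn1 reached at most 7.05 CPM in PAD2KO and 6.56 CPM in WT, below the level of the low-count filter. It passed the filter through batch 1 alone, which fixed its direction, so its place among the lower markers is no support for a fall. Immune markers summed to 15.9 to 182 CPM, endothelial markers to 1.57 to 12.7 CPM and epithelial markers to at most 2.08 CPM over all libraries. The share of counts on entries without a gene symbol was 5.0% to 6.40% in batch 2 and 3.80% to 4.90% in batch 1. The part of these in the elastic fibre differences was not tested, and the batch itself and the cells it held cannot be told apart.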

How the data were processed

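The 11 libraries were made, per the labels' protocols, from column-purified RNA with a SMARTer kit for SmartSeq2 libraries, without molecular identifiers, so repeated reads of a molecule count separately. The submitters' processing notes name GRCm39, Salmon 1.3.2, DESeq2 1.46.0 and fastp; their roles and the annotation are not given in the sources used here, nor is strand use. The authors deposited estimated counts, TPM and effective gene lengths per library. The deposited estimated counts are not scaled between libraries, and the deposited TPM values were used only to compare levels between genes and to sum them over the members. Entries without a symbol (3.80% to 6.40% of counts) were left out; the rest were summed per symbol and rounded to whole counts.

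One edgeR 4.0.16 quasi-likelihood fit (R 4.3.3, robust, TMM, filterByExpr on genotype) with a term for each of the 4 groups gave the comparisons within batches and within genotypes and their difference, and a fit with terms for batch and genotype gave the genotype difference over both batches. The filter asked for about 7.73 CPM in at least 5 libraries. Calls are at a Benjamini-Hochberg adjusted p under 0.05 over 9932 genes. The biological coefficient of variation common to them was 0.1145. Values per library are CPM on TMM-scaled totals. Patterns were compared on log2 CPM with 2 counts added. The code was tested on simulated data, and the exact intervals of the Eln count ratios used SciPy 1.17.1. The members were listed by symbol, and the text names all of them, the partners and elastases with the smallest p (up to 4 per list and comparison), the tested neighbours of Mfap2 and the 5 genes nearest to Eln in pattern. Col1a1, Col1a2, Col3a1, Pdgfra, Vim, Pdgfrb, Dcn, Thy1, Lum, Acta2, Stc1, Mustn1, Plin2, Wnt2, Tcf21, Elane, Adamtsl4, Ltbp1 and Loxl1 were named from the fixed lists after their values were seen. The members and lists were chosen with earlier results of these data known. GRCm38.p6 served for chromosomes, gene order and promoters only, since it is not the files' build.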

Additional observations from a re-analysis of the deposited data

Results flagged for a closer look

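By the interaction term of the edgeR fit, the genotype difference, PAD2KO over WT, differed between batches for 3 genes of the partner and elastase lists. It did so for 0 of the 9 tested members and for 1.62% of all tested genes. Among the 8 smooth muscle markers 3 passed as well, and their part in these values was not tested. For Loxl2, a lysyl oxidase, batch 2 minus batch 1 was 0.63 on the log2 scale (SE 0.164, adjusted p = 0.0432), with a genotype difference of 0.45 in batch 2. Its call held in 2 of 11 leave-one-out fits and was lost with length offsets (adjusted p = 0.171). Timp1 had an interaction of -0.74 (SE 0.160, adjusted p = 0.0110), and its call was lost without PAD2KO 7 (-0.64, adjusted p = 0.150) and with length offsets (adjusted p = 0.0947). Ctsl had an interaction of -0.73 (SE 0.166, adjusted p = 0.0181), which was lost without PAD2KO 7, PAD2KO 1 and WT 3 in turn (adjusted p = 0.125, 0.0607 and 0.0505) and with length offsets (adjusted p = 0.270).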

How the results depend on the processing

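Of 880 values of the 9 tested members under alternatives, 834 kept their direction and side of the threshold, 17 lost a call, 4 gained one and 25 uncalled ones changed sign. Of 626 for called partners and elastases, 554 kept both, 71 lost the call and 1 changed sign (Itgav between batches in WT, -0.0863 with length offsets). For PAD2KO against WT, the 13 genes called in batch 1 became 58 with no filter, 2 with length offsets, 22 with each batch fitted alone and 8 with the replicate block, and the 309 of batch 2 became 529 with no filter and 89 with length offsets. Between batches, the 1853 of PAD2KO became 865 with length offsets and 1219 in DESeq2, and the 2212 of WT became 1356 with length offsets. For the interaction, 161 became 323 with no filter and 26 with length offsets. Over both batches, 19 became 142 with no filter, 2 with length offsets, 30 in DESeq2, 4 with the replicate block and 4 with no batch term. With no filter 1 member was called for the interaction (Fbln5, 0.61, adjusted p = 0.0413) and 1 over both batches (Mfap2). Length offsets gave 0.00136 for Mfap5 in batch 1, 0.00657 for Fbln2 in batch 2, -0.21 for Fbn2 in the interaction and 0.00817 for Fbln5 over both batches, where no filter gave 0.0119 for Fbln5 and no batch term gave 0.00365 for Fbn1, 0.00704 for Fbln5 and 0.13 for Mfap4. Libraries with the same label number had correlations of deviations of 0.00152 to 0.0487. Deviations from a group mean of 2 or 3 libraries are tied to each other, so these correlations cannot exclude a pairing. With the replicate block Mfap5 was 0.0688 in batch 1, Fbn1 -0.0312 in batch 2 and Fbln2 -0.0324 over both. The causes were not tested.

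Leaving out each library in turn gave 5 to 20 genes in batch 1, 65 to 374 in batch 2, 1079 to 1947 between batches in PAD2KO, 33 to 228 for the interaction and 8 to 24 over both batches, there with 0 to 1 member. Counts moved by over 1.5 times without PAD2KO 2, PAD2KO 3, WT 3, WT 4 or WT 7 (batch 1: 5, 8, 5, 8 and 20), PAD2KO 7 or WT 7 (batch 2: 65 and 202), PAD2KO 6 or PAD2KO 7 (between batches in PAD2KO: 1204 and 1079), PAD2KO 3, WT 3 or PAD2KO 7 (interaction: 103, 93 and 33) and WT 3 (both batches: 8). Uncalled values that crossed 0 ran from -0.0949 to 0.13 for Mfap4 and from -0.24 to 0.0452 for Mfap5 in batch 1, and from -0.0224 to 0.0696 for Fbn1 and -0.17 to 0.20 for Fbln2 in batch 2. In the interaction they ran from -0.28 to 0.0958 for Fbln2 and -0.40 to 0.46 for Mfap2, and over both batches from -0.00303 to 0.14 for Fbln2 and -0.12 to 0.0959 for Fbln5. A fit without PAD2KO 6 or PAD2KO 7 assumes that the lone library left varies like the other groups. Depth limits Eln, Mfap4 and Ltbp4 most.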

Other observations

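Marker lists of lung fibroblast subtypes did not follow the elastic fibre genes as a block. In batch 2 against batch 1, 9.52% of all tested genes were higher and 9.13% lower in PAD2KO, and 11.7% and 10.6% in WT. Of the 7 alveolar fibroblast markers 5 were tested; in batch 2 against batch 1, 2 were higher and 2 lower in PAD2KO, and 1 was higher and 2 lower in WT. The list summed to 533 to 600.4 CPM in PAD2KO and 484 to 576 CPM in WT of batch 2, against 492 to 509 CPM in PAD2KO and 457 to 562 CPM in WT of batch 1. These sums hide opposite moves. Plin2 averaged 263 CPM in PAD2KO and 333 CPM in WT of batch 2, against 178 and 177 CPM in batch 1. Wnt2 averaged 31.1 and 17.6 CPM in batch 2, against 102 and 128 CPM in batch 1. Tcf21 reached at most 1.57 and 2.91 CPM in batch 2, so it passed the low-count filter through batch 1, which fixed its direction. Of the 8 adventitial fibroblast markers 5 were tested, with 1 higher and 2 lower in PAD2KO and 2 higher and 1 lower in WT. Of the 6 pericyte markers 3 were tested and 0 passed between batches in either genotype in edgeR or DESeq2. At an unadjusted p under 0.05 there was 1 in each genotype, where 30.4% of all tested genes were in PAD2KO and 33.1% in WT.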
